A study of Mus musculus with 8 samples.

Results

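The respiratory chain genes examined here encode the subunits of mitochondrial complexes I to IV and of ATP synthase (complex V), together with the assembly factors whose symbols share the same prefixes. Accessible regions were taken as members where the region centre lay within 1 kb of either end of a protein-coding gene whose symbol starts with Nduf, Sdh, Uqcr, Cox4, Cox5, Cox6, Cox7, Cox8 or Atp5. The choice used gene names and positions and no measured value. It gave 107 regions at 95 of 100 such genes, out of 160978 regions in all and 16392 at the ends of any protein-coding gene.

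Chromatin accessibility had been measured by ATAC-seq, a method in which a transposase inserts sequencing adapters into open chromatin, in mouse bone marrow cells sorted as cKit+ Lymph- Ery-, a population of hematopoietic stem and progenitor cells. Of 8 libraries, 4 were labelled AML (acute myeloid leukemia), 2 of genotype URE-delta/+;Tet2+/- and 2 of genotype URE-delta/+;Tet2-/-. The 4 labelled normal were 1 each of URE+/+;Tet2+/+, URE-delta/+;Tet2+/+, URE+/+;Tet2+/- and URE+/+;Tet2-/-. By their titles, the normal libraries with a Tet2 lesion were sequenced in lane 8 and all AML libraries in lanes 6 and 7. URE is the upstream regulatory element of Spi1, which encodes the transcription factor PU.1, and Tet2 encodes an enzyme that oxidises methylcytosine. The ages of the mice, and whether a library came from 1 mouse or a pool, are not in the labels. No normal library carried both lesions, so leukemia and the combined genotype cannot be told apart.

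All values come from 1 comparison made by the authors, leukemic over non-leukemic cells, titled for low PU.1. It holds for each region a log2 fold change (above 0 where leukemic cells were more accessible), a log2 average abundance (the read level) and a p-value adjusted over all regions. The labels do not say which libraries entered on either side, and as few as 1 library may stand for non-leukemic cells. Values per library were not used, so no spread between mice was computed here. What spread between libraries stands behind the authors' p-values is not known from the sources used. In bulk libraries, a change in the share of cells of a type and a change in accessibility per cell cannot be told apart. The gene-end region of Kit, the receptor used in the sort, stood at a log2 abundance of 3.26 with a log2 fold change of -0.19 (adjusted p = 0.913) per the authors' deposited table. The 6 gene-end regions of 5 erythroid markers had a median log2 abundance of -1.14 there and the 10 of 5 lymphoid markers had one of -0.47, against 1.86 over the 107 members, and none of these marker regions passed an adjusted p of 0.05. At an unadjusted p under 0.05, 1 lymphoid and 0 erythroid marker regions passed. Of the progenitor markers, Cd34, a surface protein of stem and progenitor cells, fell by 2.48 on the log2 scale per the authors' deposited table (adjusted p = 1.24e-04). The other progenitor marker regions were not called, with Mpo at -0.25 (adjusted p = 0.558) and Gata2 at 0.42 (adjusted p = 0.587) and 0.96 (adjusted p = 0.0882) per the authors' deposited table, and the 5 regions of the list had a median of -0.19 with 2 above 0. The part of cell composition in the values of the members was not tested.

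Complex I takes electrons from NADH, complex II takes them from succinate, and both pass them through ubiquinone to complex III and, by cytochrome c, to complex IV, which reduces oxygen. Complexes I, III and IV pump protons, and complex V uses the gradient to make ATP. Most subunits are encoded in the nucleus, and their promoters are known as targets of NRF1, of ETS factors such as GABP, and of YY1 and the estrogen-related receptors, acting with coactivators of the PGC-1 family. Quiescent stem cells are known to rely on glycolysis more than their dividing progeny do, and some leukemic cells depend on oxidative phosphorylation.

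The promoter sequences of 6 genes are shown. They are those of the lowest adjusted p (Cox6b2), of the highest log2 fold change (Sdhaf2), and of 4 chromosome 2 genes (Ndufaf5, Ndufs3, Ndufaf1 and Ndufa8) whose start-site regions stood on both sides of 0. The start-site regions of Atp5c1 and Atp5e, also on chromosome 2, stood above 0, and their promoters are not shown. Each run is the 250 bases before the RefSeq start site, 5′ to 3′ on the strand of the gene, from the GRCm38.p6 tables of RefSeq, and capitals mark matches on either strand to the letters searched for NRF1 and ETS factors. The places are chr7:4753095-4753344 (minus strand) for Cox6b2, chr19:10525210-10525459 (minus) for Sdhaf2, chr2:140170396-140170645 (plus) for Ndufaf5, chr2:90904722-90904971 (minus) for Ndufs3, chr2:119662835-119663084 (minus) for Ndufaf1 and chr2:36049339-36049588 (minus) for Ndufa8.
Cox6b2: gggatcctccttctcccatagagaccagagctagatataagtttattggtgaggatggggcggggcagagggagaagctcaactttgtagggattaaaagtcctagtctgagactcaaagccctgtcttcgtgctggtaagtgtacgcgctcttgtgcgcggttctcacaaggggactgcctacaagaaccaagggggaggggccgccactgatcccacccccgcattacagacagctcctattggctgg
Sdhaf2: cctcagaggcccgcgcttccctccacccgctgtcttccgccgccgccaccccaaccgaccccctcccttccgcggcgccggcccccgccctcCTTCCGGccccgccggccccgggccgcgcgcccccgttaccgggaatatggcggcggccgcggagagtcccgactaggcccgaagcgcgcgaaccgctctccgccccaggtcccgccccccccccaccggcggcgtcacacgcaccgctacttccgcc
Ndufaf5: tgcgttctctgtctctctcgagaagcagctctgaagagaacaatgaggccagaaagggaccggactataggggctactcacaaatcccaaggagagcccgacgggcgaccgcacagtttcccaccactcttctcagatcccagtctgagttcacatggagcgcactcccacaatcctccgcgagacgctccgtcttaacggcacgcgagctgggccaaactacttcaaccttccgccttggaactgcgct
Ndufs3: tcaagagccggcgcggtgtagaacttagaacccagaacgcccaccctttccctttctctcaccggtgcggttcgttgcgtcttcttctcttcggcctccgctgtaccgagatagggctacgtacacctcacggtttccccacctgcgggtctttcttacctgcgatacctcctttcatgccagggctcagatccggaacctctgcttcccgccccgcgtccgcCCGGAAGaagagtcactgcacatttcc
Ndufaf1: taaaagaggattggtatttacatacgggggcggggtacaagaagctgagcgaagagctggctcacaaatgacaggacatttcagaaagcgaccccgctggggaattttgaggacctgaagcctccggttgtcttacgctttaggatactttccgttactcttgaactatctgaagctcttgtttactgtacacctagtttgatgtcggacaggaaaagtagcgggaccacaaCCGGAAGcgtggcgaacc
Ndufa8: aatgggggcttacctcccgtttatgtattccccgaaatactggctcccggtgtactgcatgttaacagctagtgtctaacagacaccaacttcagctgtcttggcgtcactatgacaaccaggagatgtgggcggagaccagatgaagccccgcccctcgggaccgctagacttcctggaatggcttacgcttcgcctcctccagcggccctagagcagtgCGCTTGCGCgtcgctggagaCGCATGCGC
Counting from the start site, the Sdhaf2 match to the ETS letters shown lies at -158, that of Ndufs3 at -27 and that of Ndufaf1 at -18, and the NRF1 matches of Ndufa8 lie at -29 and -9. The windows of Cox6b2 and Ndufaf5 hold no capitals, which says only that the letters searched are not in these 250 bases. In the 50 bases after the start, which were searched but are not shown, Ndufaf5 has overlapping NRF1 matches at 17 and 18, and Sdhaf2 and Ndufs3 have further ETS matches at 17 and 2. All 6 lie in regions whose values are given below, and the log2 fold changes of the genes with an ETS match, 1.66 for Sdhaf2, -0.96 for Ndufs3 and -0.79 for Ndufaf1 per the authors' deposited table, lay on both sides of 0.

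At most respiratory chain gene ends the fold change leaned slightly towards leukemic cells, and few single regions passed the test. Per the authors' deposited table, 84 of the 107 regions (78.5%) had a log2 fold change above 0, with a median of 0.29, quartiles of 0.10 and 0.63 and a range of -1.98 to 1.66. Over the 16392 regions at protein-coding gene ends, 61.0% lay above 0 with a median of 0.22, and over all 160978 regions 50.6% with a median of 0.02. No member reached the adjusted p of 0.001 that defines the authors' sets of changed regions, where 2.46% of all regions and 2.71% of protein-coding gene ends did. The lowest adjusted p among the members was 0.00304. The title of the table names csaw, which counts reads in windows along the genome, and by its unadjusted p 30 of 107 members (28.0%) were under 0.05, against 31.3% of all regions and 32.9% of protein-coding gene ends.

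At an adjusted p under 0.05, which is the threshold meant by higher and lower calls from here on, 17 of the 107 members (15.9%) passed per the authors' deposited table. The share over all regions was 17.2%, and over protein-coding gene ends it was 18.1%. Of the 17, 12 rose and 5 fell. Over all regions 7.98% were higher and 9.21% lower, and over protein-coding gene ends 10.1% were higher and 8% lower. The count of called members was near the background. In the authors' unchanged set (adjusted p over 0.9) lay 15 of the 107 members and 19123 of all 160978 regions.

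**Figure D1:**
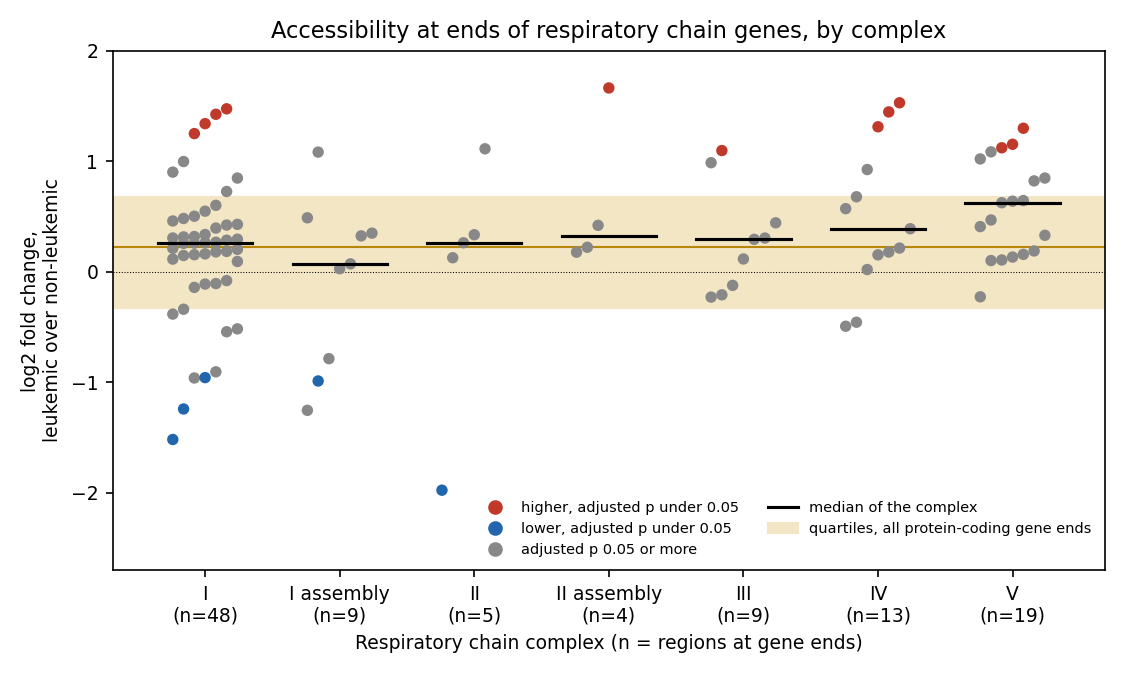
Log2 fold change (leukemic over non-leukemic, vertical axis) of each of the 107 member regions by complex, with assembly factors apart; each point is 1 region, a black bar marks the median of each column, the band and its line mark the quartiles and median over all protein-coding gene ends, and colour marks calls at an adjusted p under 0.05. Most points lie above 0 in every column, the column of complex V has the highest median (0.63), and the lowest point is the Sdhb region at -1.98.

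In complex I, the NADH dehydrogenase, all 41 genes had a region, and 35 of their 48 regions lay above 0 with a median log2 fold change of 0.26 per the authors' deposited table. At an adjusted p under 0.05, 4 rose (8.33%) and 3 fell (6.25%), against 10.1% and 8% of all protein-coding gene ends. The core subunits, among them those that carry the flavin and the iron-sulfur clusters, went both ways. The region of Ndufs1, the largest core subunit (chr1:63175837-63178600), rose by 1.43 on the log2 scale per the authors' deposited table (adjusted p = 0.0200). That of Ndufs8, a core iron-sulfur subunit (chr19:3912351-3913753), stood at 1.34 (adjusted p = 0.0125) per the authors' deposited table. Ndufs3, another core subunit, had its start-site region at chr2:90903451-90905126, which fell by 0.96 per the authors' deposited table (adjusted p = 0.0282). All other regions within 5 Mb of it had a median of -0.85. Ndufs7, Ndufv1 and Ndufv2, also core subunits, did not pass: the authors' deposited table gives log2 fold changes of 0.40 for Ndufs7 (adjusted p = 0.109), 0.30 for Ndufv1, the flavin-binding subunit (adjusted p = 0.475), and 0.31 for Ndufv2 (adjusted p = 0.830).

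Among the accessory subunits of complex I, the regions past the threshold were a start site and 2 gene ends away from the start. The start-site region of Ndufv3, a small subunit beside the flavin module (chr17:31519440-31521232), rose by 1.25 on the log2 scale per the authors' deposited table (adjusted p = 0.0375). Ndufa13, also known as GRIM-19, had a narrow region at its 3' end (chr8:69893959-69894152) at 1.47 (adjusted p = 0.00386) per the authors' deposited table, while its start-site region, at a log2 abundance of 4.21, stood at 0.26 (adjusted p = 0.587). Ndufa8 had a region at its 3' end (chr2:36034991-36036053) that fell by 1.52 per the authors' deposited table (adjusted p = 0.0302), while its start-site region stood at 0.90 (adjusted p = 0.202). Ndufa8 thus had the widest gap, 2.42 on the log2 scale, of the 12 genes with 2 regions. Near 0 stood the start-site regions of many accessory subunits, such as Ndufa10 at 0.09 (adjusted p = 0.794), Ndufb2 at 0.12 (adjusted p = 0.741) and Ndufab1, the mitochondrial acyl carrier protein, at 0.16 (adjusted p = 0.617) per the authors' deposited table. The region at the 3' end of Ndufa10 stood at -0.96 (adjusted p = 0.141) and that of Ndufab1 at -0.54 (adjusted p = 0.526) per the authors' deposited table, both below the start-site region of the same gene. The regions of Ndufb4b and Ndufb4c, near copies of Ndufb4, had log2 abundances of -2.42 and -2.03 against 3.70 for Ndufb4 per the authors' deposited table, and reads in such copies can be hard to place.

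The assembly factors of complex I, named Ndufaf, gave 9 regions at 8 genes, with 6 above 0 and a median of 0.07 per the authors' deposited table. The start-site region of Ndufaf5 (chr2:140169935-140171526), which hydroxylates an arginine of Ndufs7, fell by 0.99 on the log2 scale per the authors' deposited table (adjusted p = 0.0192) and was the only one of the 9 to pass 0.05. Ndufaf7, an arginine methyltransferase, stood lowest at -1.25 (adjusted p = 0.0719) per the authors' deposited table, and Ndufaf4 stood highest at 1.08 (adjusted p = 0.0897). Ndufaf3, which works with Ndufaf4, stood at 0.03 (adjusted p = 0.934) per the authors' deposited table at a log2 abundance of 5.24.

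In complex II, succinate dehydrogenase, 4 of 5 regions at 4 genes lay above 0 with a median of 0.26 per the authors' deposited table. The exception was the lowest of all 107 members. It was a region at the 3' end of Sdhb, the iron-sulfur subunit (chr4:140978412-140978597), and it fell by 1.98 on the log2 scale per the authors' deposited table (adjusted p = 0.0135). The start-site region of Sdhb stood at 0.26 (adjusted p = 0.738), and that of Sdhd, a membrane anchor, at 1.11 (adjusted p = 0.0928) per the authors' deposited table. Sdha, the flavoprotein, stood at 0.34 (adjusted p = 0.752) and Sdhc, the other anchor, at 0.13 (adjusted p = 1) per the authors' deposited table, so no other region of the complex passed. Of the 4 assembly factors, all 4 regions lay above 0. Sdhaf2, which is needed to attach flavin to Sdha, had the highest log2 fold change of the 107 members, 1.66 per the authors' deposited table (chr19:10523399-10526278; adjusted p = 0.00557; log2 abundance -0.22). The regions of Sdhaf1, Sdhaf3 and Sdhaf4 stood between 0.18 and 0.42 there, none past 0.05.

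In complex III, the cytochrome bc1 complex, 6 of 9 regions at 8 genes lay above 0 with a median of 0.29 per the authors' deposited table. The 1 call was a region of 292 bp at the 5' end of Uqcr11, a small subunit (chr10:80407492-80407784), which rose by 1.10 on the log2 scale per the authors' deposited table (adjusted p = 0.0220). The region that holds the Uqcr11 start site stood at 0.44 (adjusted p = 0.190) per the authors' deposited table. Uqcrfs1, the Rieske iron-sulfur protein, stood at 0.99 (adjusted p = 0.260) per the authors' deposited table at a log2 abundance of -1.55. The 2 core proteins lay on both sides of 0, Uqcrc1 at 0.29 (adjusted p = 0.446) and Uqcrc2 at -0.23 (adjusted p = 0.449) per the authors' deposited table.

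In complex IV, cytochrome c oxidase, 13 of 18 genes had a gene-end region. Of the 13 regions, 11 lay above 0 with a median of 0.39 per the authors' deposited table. All 3 calls rose, 23.1% of the regions, where 10.1% of all protein-coding gene ends were higher. The region of Cox6b2, a testis-enriched isoform, had the lowest adjusted p of the members (chr7:4752156-4753476; log2 fold change 1.45; log2 abundance 2.49; adjusted p = 0.00304 per the authors' deposited table). The region of Cox4i1, the ubiquitous form of the subunit that binds ATP (chr8:120667059-120668831), stood at 1.53 (adjusted p = 0.00823) per the authors' deposited table. The start-site region of Cox5b (chr1:36691099-36692475), which binds zinc, rose by 1.31 per the authors' deposited table (adjusted p = 0.0241) and was the only start-site call of the set with no other protein-coding gene end within 1 kb. Cox5a stood at 0.93 (adjusted p = 0.0550) per the authors' deposited table, just short of the call threshold, in a region at the 5' end that does not hold the RefSeq start site.

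Where a tissue-restricted isoform had a region beside its ubiquitous partner, no common order was seen. Cox4i2, the lung-enriched form, stood at -0.49 (adjusted p = 0.426) per the authors' deposited table against 1.53 for Cox4i1. Cox6b2 stood at 1.45 per the authors' deposited table against 0.57 for the ubiquitous Cox6b1 (adjusted p = 0.117). Cox7a1, the heart and muscle form, stood at 0.18 (adjusted p = 0.662) with a log2 abundance of 2.86 per the authors' deposited table. The muscle forms Cox6a2 and Cox8b and the testis forms Cox7b2 and Cox8c had no region within 1 kb of a gene end. Cox7a2, the ubiquitous partner of Cox7a1, had none either, since its RefSeq start site lies inside its annotated extent, where the region chr9:79759321-79760552 stood at -0.02 (adjusted p = 1) per the authors' deposited table. Ndufa4, grouped with complex I by its symbol but known as a subunit of complex IV, stood at -0.11 (adjusted p = 0.746) per the authors' deposited table, and the regions of its hypoxia-induced relative Ndufa4l2 stood at 0.48 (adjusted p = 0.616) and 0.43 (adjusted p = 0.522).

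In complex V, ATP synthase, 18 of 19 regions at 17 genes lay above 0 per the authors' deposited table. The 19 regions had a median of 0.63, the highest median among the complexes. Their median log2 abundance of 0.67 was the lowest among the complexes, where the others ran from 0.99 (complex II) to 2.86 (complex III). The part of abundance in this rank was not tested. All 3 calls rose, 15.8% of the regions, where 10.1% of all protein-coding gene ends were higher. The region of Atp5a1, the alpha subunit of the catalytic head (chr18:77773416-77774728), stood at 1.30 (adjusted p = 0.0230) per the authors' deposited table. The region of Atp5pb, the b subunit of the peripheral stalk (chr3:105958316-105960097), rose by 1.15 per the authors' deposited table (adjusted p = 0.0457). A region of 156 bp at the 3' end of Atp5d, the delta subunit of the rotor (chr10:80146050-80146206), stood at 1.12 (adjusted p = 0.0424) per the authors' deposited table. Other parts of the head were not called: Atp5b, the catalytic beta subunit, stood at 0.11 (adjusted p = 0.706) at a log2 abundance of 4.64, and Atp5c1, the gamma subunit, at 1.09 (adjusted p = 0.0923) at -0.15 per the authors' deposited table. The start-site regions of Atp5g1 and Atp5g2, which encode the same membrane ring protein, stood at 0.16 (adjusted p = 0.524) and 0.64 (adjusted p = 0.382) per the authors' deposited table, and the region at the 3' end of Atp5g1 stood at 0.82 (adjusted p = 0.137). The 1 region below 0, at -0.23 (adjusted p = 1) per the authors' deposited table, is that of Atp5j, and its centre also lies within 1 kb of an end of Gabpa, the DNA-binding subunit of GABP.

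On chromosome 2 the pattern was lower. The 10 member regions there, at 8 genes, had log2 fold changes with a median of -0.64 and 4 above 0 per the authors' deposited table, against 0.31 with 80 of 97 above 0 (82.5%) on the other chromosomes, a difference of medians of -0.94. The difference was -0.19 over regions that overlap the gene end, -0.49 with centres within 500 bp and -0.50 without assembly factors and Cox7a2l. On chromosome 2 none rose and 3 fell, with 5 of the 10 at an unadjusted p under 0.05, where 49.5% of the protein-coding gene ends of chromosome 2 were. Elsewhere 12 of 97 rose (12.4%) and 2 fell (2.06%), against 10.6% and 6.07% of the protein-coding gene ends there. All regions of chromosome 2 were low as well, with a median of -0.56 over 12588 regions against 0.06 elsewhere, and its protein-coding gene ends had a median of -0.50 over 1308 regions, of which 59 rose and 397 fell (34.9% called). So the members were read against all other regions within 5 Mb.

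Along chromosome 2 the members fell into a low stretch and its flanks. Between 73.9 and 153 Mb lay 6 regions of 5 genes (Atp5g3, Ndufs3, Ndufaf1, Ndufaf5 and Cox4i2) whose surroundings had medians of -0.99 to -0.85 per the authors' deposited table. Their own median was -0.84, 5 of the 6 were below 0, and 3 of the 6 were above their surroundings. The start-site region of Ndufs3 stood at -0.96 and its 3' end at -0.90 (adjusted p = 0.262) per the authors' deposited table, against surroundings at -0.85. Ndufaf5 stood at -0.99 against -0.91, and Ndufaf1, which helps build the membrane arm of complex I, at -0.79 (adjusted p = 0.0835) against -0.99 per the authors' deposited table. These regions lay close to the level of the regions around them. Cox4i2 stood at -0.49 against -0.92, and the Atp5g3 region at 0.41 (adjusted p = 0.513) against -0.98 per the authors' deposited table, an excess of 1.39.

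The Atp5g3 member is a region of 268 bp at the 5' end that does not hold the RefSeq start site. The next region of that gene, 1372 bp from the gene end and so just outside the choice, stood at -0.81 (adjusted p = 0.0186) per the authors' deposited table with a log2 abundance of 3.38. The other region just outside was one of Ndufaf5 at 1337 bp, with -0.93 (adjusted p = 0.304) per the authors' deposited table. Just inside lay the 3' end region of Ndufa10 at 996 bp (-0.96) and a second region of Atp5a1, 1.02 (adjusted p = 0.121) per the authors' deposited table. The 4 chromosome 2 regions outside the low stretch had a median of 0.50, in surroundings of -0.07 to 0.35. They were Atp5c1 at 1.09, the 2 regions of Ndufa8 at -1.52 and 0.90, and Atp5e, the epsilon subunit of ATP synthase, at 0.10 (adjusted p = 0.784) per the authors' deposited table. The low 3' end of Ndufa8 lay outside the low stretch, among regions with a median of 0.35.

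**Figure D2:**
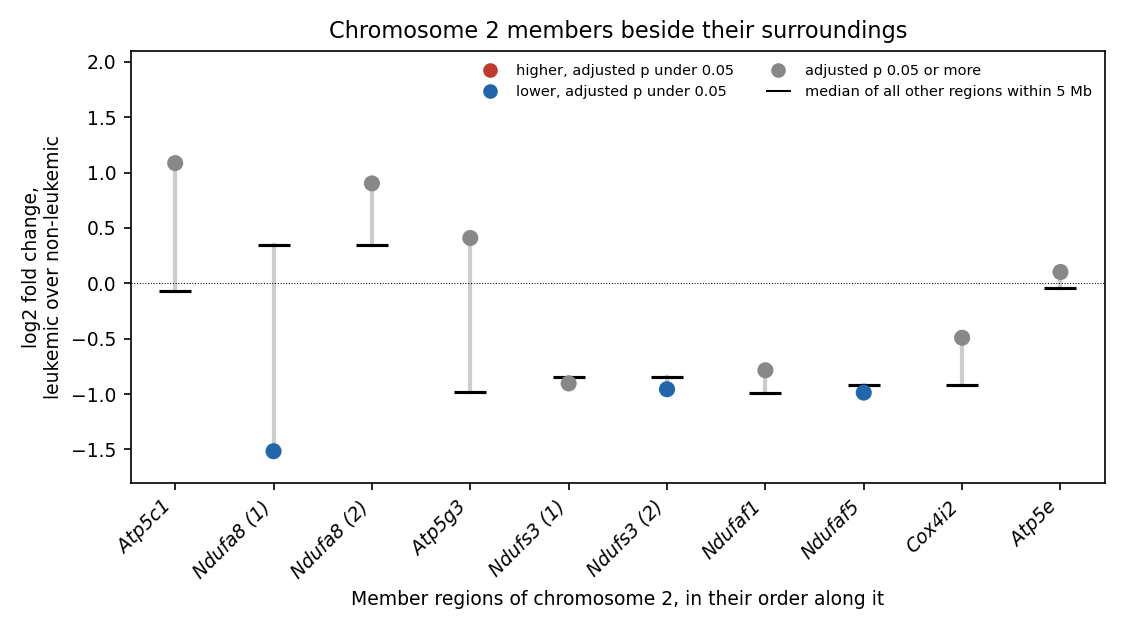
Log2 fold change (vertical axis) of the 10 member regions of chromosome 2 in their order along it, each joined to the median of all other regions within 5 Mb (black bar); numbers in brackets tell apart the 2 regions of 1 gene, and colour marks calls at an adjusted p under 0.05. From Atp5g3 to Cox4i2 the surroundings lie between -0.99 and -0.85, and the points of Ndufs3, Ndufaf1 and Ndufaf5 lie near them.

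Set against its surroundings, chromosome 2 no longer stood apart. Of the members, 77 of 107 lay above the median of all other regions within 5 Mb, with a median excess of 0.18. The counts were 6 of 10 on chromosome 2 and 71 of 97 elsewhere, and the difference of medians between chromosome 2 and the rest shrank from -0.94 to -0.004. Over all protein-coding gene ends, 57.4% lay above their surroundings with a median excess of 0.12. Against the protein-coding gene ends within 5 Mb alone, 63 of the 107 members lay higher. On the X chromosome, where all regions had a median of -0.45 per the authors' deposited table, the 3 members stood at 0.20 for Ndufb11 (adjusted p = 0.460), -0.34 for Ndufa1 (adjusted p = 0.391) and 0.15 for Cox7b (adjusted p = 0.788), each at or above surroundings of -0.58, -0.34 and -0.42.

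**Figure D3:**
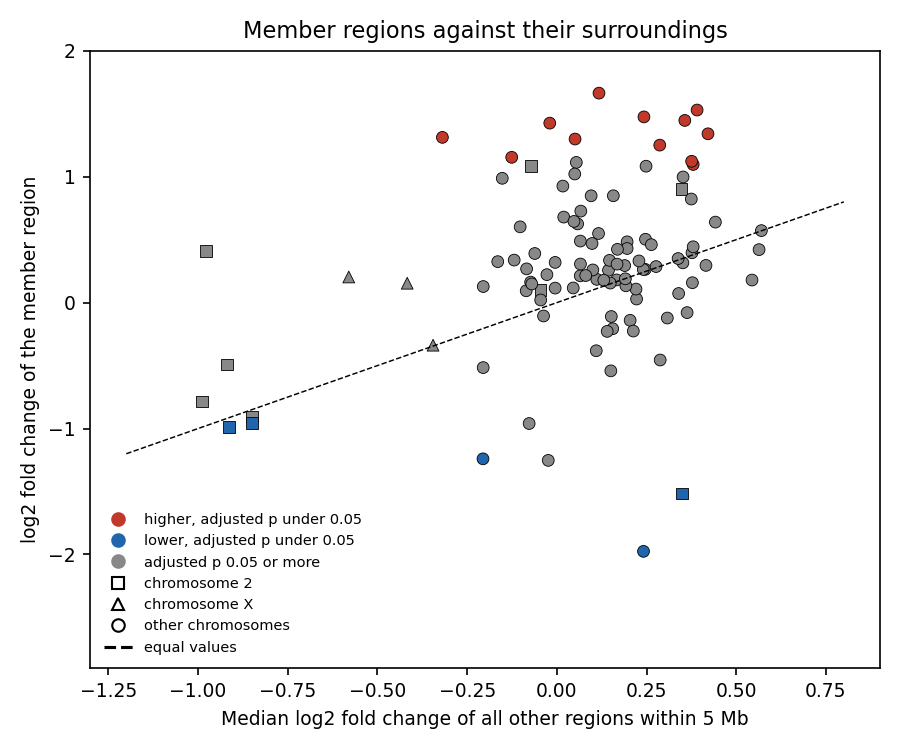
Log2 fold change of each member region (vertical axis) against the median log2 fold change of all other regions within 5 Mb (horizontal axis), with colour for calls at an adjusted p under 0.05, shape for chromosome 2, X and others, and a dashed line of equal values. Of 107 points 77 lie above the line, the chromosome 2 squares at the left lie near it or above it, and the 2 lowest points, of Sdhb and Ndufa8, have surroundings above 0.

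The size of the fold moved with the abundance of the region. The 49 members with a log2 abundance of 2 or more had log2 fold changes with a median of 0.16 per the authors' deposited table with 1 higher and 2 lower calls. The 28 members from 0 to 2 had a median of 0.34 with 4 higher and 2 lower calls, and the 30 under 0 had a median of 0.85 with 7 higher and 1 lower. Of the 23 members with a log2 fold change over 0.8, 21 had a log2 abundance under 1. Across the members, Spearman's rho between abundance and the size of the fold was -0.701, a description over regions that share the same libraries. Of the 49 abundant members 6.12% were called, and of the 5815 protein-coding gene ends as abundant 14.9% were. From 0 to 2 the shares were 21.4% and 27.7%, and under 0 they were 26.7% and 13.2%, where the gene ends had a median of 0.34. These differences were not tested.

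Wide regions of low abundance held many of the high values. The 19 members of 1000 bp or wider with a log2 abundance under 0, among them Sdhaf2, Cox4i1, Ndufs1, Cox5b, Ndufv3 and Atp5pb, had 18 values above 0, a median of 1.00 and 6 higher calls per the authors' deposited table. The same class over all protein-coding gene ends, 1409 regions, had 82.8% above 0, a median of 0.78, 192 higher and 23 lower calls. The 31 wide members with a log2 abundance of 2 or more had a median of 0.13, where the 4121 such gene ends had one of -0.04. The sources used here do not give how values in windows became 1 value per region. In the table deposited by the authors, no region under 250 bp has a p-value of exactly 1, while 7.86% of regions of 1000 bp or wider do, as do 7 members. The part of width and abundance in the higher calls was not tested.

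**Figure D4:**
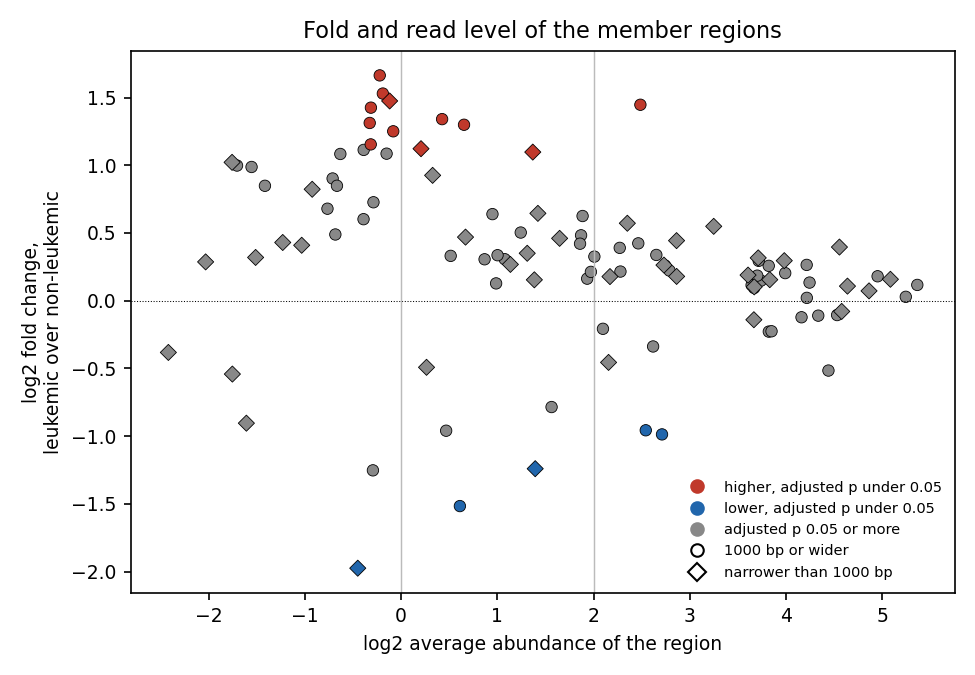
Log2 fold change (vertical axis) of the 107 member regions against their log2 average abundance (horizontal axis), both from the authors' deposited table, with colour for calls at an adjusted p under 0.05, circles for regions of 1000 bp or wider, diamonds for narrower ones and grey lines at 0 and 2. Points spread from -1.98 to 1.66 at low abundance and narrow around a median of 0.16 at a log2 abundance of 2 or more.

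By place, 76 of the 107 regions hold a RefSeq start site of the gene, 3 lie at the 5' end without holding it, 10 lie at the 3' end and 18 belong to genes not matched in the promoter table. For the start-site regions the log2 fold change had a median of 0.29, with 63 above 0, 6 higher and 2 lower calls per the authors' deposited table. The members at 3' ends had a median of -0.11 with 5 of 10 above 0, 2 higher calls (Ndufa13 and Atp5d) and 2 lower calls (Ndufa8 and Sdhb), and were narrow, with a median width of 192 bp. So 4 of the 17 calls lie at the far end of the gene that named them. Over all protein-coding gene ends of any place 18.1% were called, and shares by place were not taken for them. Whether the counts by place are particular to the members cannot be told.

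Many calls lay where a second gene begins or ends. Of the 107 members, 44 had a centre within 1 kb of an end of another protein-coding gene, and 13 of these 44 (29.5%) were called, 10 higher and 3 lower, per the authors' deposited table. Of the 63 others, 4 (6.35%) were called: Cox5b and Uqcr11 rose, and the 3' ends of Sdhb and Ndufa8 fell. Over all protein-coding gene ends, 15.2% of 1896 regions at the ends of 2 or more genes were called and 18.5% of 14496 at 1 gene. The regions of Sdhaf2 and Cpsf7, Cox4i1 and Emc8, Ndufs1 and Eef1b2, Ndufs8 and Aldh3b1, Ndufv3 and Wdr4, Atp5pb and Wdr77, and Atp5a1 and Haus1 are shared in this way among the higher calls, as are those of Cox6b2 and Fam71e2, Ndufa13 and Yjefn3, and Atp5d and Midn. Ndufs3 and Kbtbd4, and Ndufaf5 and Esf1, share theirs among the lower. Which gene of a pair a value belongs to cannot be told apart, and strand is not recorded by the assay.

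Several motifs known for respiratory chain promoters stood in a larger share of the member promoters than of all protein-coding promoters. RefSeq gave 87 promoters for 82 of the 100 genes, each from 250 bases before to 50 after the start, and matches were searched on both strands, with overlapping matches of different motifs both counted. The NRF1 letters GCGCANGCG stood in 28.7% of member promoters and 8.58% of 21263 protein-coding promoters, and the ETS letters CCGGAAG in 25.3% and 11.6%. The YY1 letters AAGATGGCG stood in 9.20% (8 of 87) and 1.83%. The estrogen-related receptor letters TCAAGGTCA stood in 2.30% (2 of 87) and 0.334%, and the cAMP response element TGACGTCA in 4.60% (4 of 87) and 2.23%. The member shares of these last 2 motifs rest on few promoters. The letters GAGGAAGT, used here for PU.1, stood in 3.45% of member promoters and 3.13% of protein-coding ones. Those of the SP and KLF families, GGGCGG, stood in 46.0% and 46.2%, and CCAAT in 41.4% and 38.2%. Member promoters had a median of 58.7% G and C and 20 CpG, against 56.3% and 13, and the part of base composition in the shares was not tested.

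The fold of the members was then read by motif. The 23 start-site regions with an NRF1 match had a median log2 fold change of 0.39 per the authors' deposited table and the 53 without had one of 0.26. For ETS the medians were 0.32 over 22 regions and 0.28 over 54. Regions with a match also stood higher for YY1 (0.33 over 8, 0.29 over 68) and PU.1 (0.50 over 3, 0.29 over 73). For the estrogen-related receptors only 1 region had a match, at 1.11. Regions with a match stood lower for SP and KLF (0.26 over 36, 0.30 over 40) and CCAAT (0.26 over 33, 0.31 over 43). The same held for the cAMP response element (0.15 over 4, 0.30 over 72). None of these differences was tested. A match is a description of letters and not of a bound site.

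Genes that serve the chain or belong to it but do not carry its prefixes were read from lists in the same way. Of 36 other assembly factors, 35 had a gene-end region, and 29 of 37 regions lay above 0 with a median of 0.30, 4 higher (10.8%) and 0 lower calls, and 11 regions (29.7%) at an unadjusted p under 0.05, per the authors' deposited table. These shares lie near the 10.1% and 32.9% of all protein-coding gene ends. The higher calls were Coa4 at 1.26 (adjusted p = 0.00175), Coa7 at 1.13 (adjusted p = 0.0216), Coa3 at 1.15 (adjusted p = 0.0493) and Sco2 at 0.75 (adjusted p = 0.0313) per the authors' deposited table. All 4 genes are known in the building of complex IV, as are many others of the list. A second region of Coa4 at 0.68 (adjusted p = 0.367) and one of Sco2 at 0.98 (adjusted p = 0.101) were not called, per the authors' deposited table. The 6 electron carrier genes had 7 regions with 5 above 0 and a median of 0.45. Of these only a region of Dhodh, which passes electrons from pyrimidine synthesis to ubiquinone, rose, by 1.01 per the authors' deposited table (adjusted p = 0.0288). Cycs, cytochrome c itself, stood at -0.15 (adjusted p = 0.850) per the authors' deposited table.

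Among regulators of mitochondrial biogenesis, 17 of 20 genes had a region, and 13 of 20 regions lay above 0 with a median of 0.15 per the authors' deposited table. There were 2 higher calls (10%) and 0 lower, against 10.1% and 8% of all protein-coding gene ends. The region of Ppargc1a, the coactivator PGC-1alpha (chr5:52115633-52116816), rose by 1.23 on the log2 scale per the authors' deposited table (adjusted p = 1.12e-04; log2 abundance 4.04). It was past the 0.001 that no member and 2.71% of all protein-coding gene ends passed. The region of Tfb1m, a mitochondrial rRNA methyltransferase (chr17:3557125-3558718), stood at 1.87 (adjusted p = 0.00128) per the authors' deposited table. The regulators on the list whose own letters were searched were not called: Nrf1 stood at 0.19 (adjusted p = 0.852), Yy1 at 0.53 (adjusted p = 1), Gabpa at -0.23 (adjusted p = 1) and Esrra at 0.62 (adjusted p = 0.160) and 0.87 (adjusted p = 0.169) per the authors' deposited table. Creb1, for the cAMP response element, stood at -0.20 (adjusted p = 0.818) and -0.47 (adjusted p = 0.556) per the authors' deposited table. Tfam, which packages mitochondrial DNA, stood at -0.33 (adjusted p = 0.520) per the authors' deposited table at its more abundant region.

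Ribosomal protein genes, another large class of housekeeping genes, showed a like lean. Of 103 gene-end regions of cytosolic ribosomal protein genes, 91 (88.3%) lay above 0 with a median of 0.44 per the authors' deposited table. There were 10 higher (9.71%) and 2 lower (1.94%) calls. Of 90 regions of mitochondrial ribosomal protein genes, 71 (78.9%) lay above 0 with a median of 0.29, 9 higher (10%) and 1 lower (1.11%). Over all protein-coding gene ends 10.1% were higher and 8% lower. The respiratory chain regions, with 78.5% above 0 and a median of 0.29, lay at the level of the mitochondrial ribosomal genes, and none of these differences was tested.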

How the data were processed

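ATAC-seq values came from 8 libraries. Per the submitters' processing notes, reads were handled with Genrich 0.6, SAMtools 1.10.2 and Bowtie2 2.4.1 on GRCm38 (mm10). The authors' deposited table, whose title names csaw, gives per region a log2 fold change and a log2 average abundance, with no stated normalization. The p-values are as deposited, and their adjusted form matched a Benjamini-Hochberg adjustment over all 160978 regions to within 2.39e-15. The tables have no header: the direction of the fold was read from the table's title and the signs in the authors' sets of more and less accessible regions, and the abundance from its position and range.

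Regions were matched to gene extents of the RefSeq GRCm38.p6 table and to its promoters by symbol (82 of 100 genes). Coordinates are printed as deposited; the sources used here do not say whether starts count from 0 or 1. The functions were checked on simulated data (Python 3.11.15, pandas 2.3.3, numpy 2.4.6, matplotlib 3.10.9). No test was run beyond the authors' own: counts and medians describe each list. Depth per library is unknown, so no interval was set, and no replicate could be left out. The members and lists were chosen with earlier results of these data known. Regions were named where the adjusted p was under 0.001, then up to 12 with the lowest adjusted p under 0.05, the highest and lowest of each complex, every chromosome 2 member, the widest gaps among genes with 2 regions, and the tissue-restricted isoforms; other members were named by their role in a complex after their values were seen. 1 member gene counted in the totals is not reported here by name.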

Additional observations from a re-analysis of the deposited data

How the results depend on the processing

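No paired analysis was possible because the deposited values are per comparison and not per library, and for the same reason no replicate could be left out and no interval between mice could be given. The call count of 0 at an adjusted p under 0.001 became 17 at one under 0.05. The settings on higher and lower calls apart, on start sites, on other genes' ends and on wide regions of low abundance (1000 bp or wider, log2 abundance under 0) were chosen after seeing the data, as were centres within 500 bp and overlap for the chromosome 2 difference. The 12 higher calls became 6 over start-site regions, 2 without regions at another gene's end and 6 without wide regions of low abundance. The 5 lower calls became 3 within 500 bp, and 2 each with overlap of the gene end, without chromosome 2, over start-site regions and without regions at another gene's end. The median log2 fold change of 0.29 became 0.2772 within 500 bp, 0.3057 within 2 kb, 0.2955 without assembly factors and Cox7a2l, 0.3057 without chromosome 2, 0.2679 with 1 region per gene and 0.2139 without wide regions of low abundance. The chromosome 2 difference of -0.94 became -0.4853 within 500 bp, -0.9578 within 2 kb, -0.1928 with overlap of the gene end, -0.5006 without assembly factors and Cox7a2l, -0.9328 with 1 region per gene, -0.6422 over start-site regions, -1.103 without wide regions of low abundance and -0.004189 against surroundings within 5 Mb. None of these values changed sign, and the cause of each shift was not tested.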

Other observations

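The pathways that feed the chain were read from lists in the same way. Of the citric acid cycle and pyruvate dehydrogenase genes, 17 of 18 had a gene-end region. Of 21 regions, 15 lay above 0 with a median log2 fold change of 0.23 per the authors' deposited table. At an adjusted p under 0.05 there were 2 higher calls (9.52%) and 1 lower (4.76%), against 10.1% and 8% of all protein-coding gene ends. Mdh2, mitochondrial malate dehydrogenase, rose by 1.21 on the log2 scale per the authors' deposited table (adjusted p = 0.0240), and Dlat, a component of pyruvate dehydrogenase, by 1.23 (adjusted p = 0.0332). Pdhx, another component, lies on chromosome 2 and fell by 0.96 per the authors' deposited table (adjusted p = 6.22e-04). Cs, citrate synthase, stood at 0.79 (adjusted p = 0.305) per the authors' deposited table.

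Of the glycolysis genes, 18 of 19 had a gene-end region, and 19 of 23 regions lay above 0 with a median of 0.65 per the authors' deposited table. There were 6 higher calls (26.1%) and 1 lower (4.35%), against 10.1% and 8% of all protein-coding gene ends. The higher calls were 2 regions of Gapdh, at 1.75 (adjusted p = 0.00404) and 1.12 (adjusted p = 0.0277), and 1 each of Gpi1 at 1.05 (adjusted p = 0.0229), Eno1 at 1.03 (adjusted p = 0.0278), Pfkm at 1.32 (adjusted p = 0.0349) and Pkm at 0.93 (adjusted p = 0.0421) per the authors' deposited table. The called regions of Eno1 and Pkm had log2 abundances of 0.92 and 1.08, and more abundant regions of both genes were not called. That of Eno1 stood at 0.37, at a log2 abundance of 4.47, per the authors' deposited table. Those of Pkm stood at -0.23, at a log2 abundance of 5.72, and at 0.12, at 2.09, per the authors' deposited table. Ldhb, the lactate dehydrogenase subunit of oxidative tissues, fell by 1.65 per the authors' deposited table (adjusted p = 0.00344), while Ldha stood at 0.90 (adjusted p = 0.210). The median of 0.65 stands beside 0.29 over the respiratory chain regions and 0.22 over all protein-coding gene ends, and these differences were not tested.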
